A study of Vitis vinifera with 204 samples.

Results

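Of 29971 gene IDs in the table, 177 form the group described here: genes whose mean level in the Cabernet Sauvignon berry was at least 2-fold higher in early ripening than in green berries, and at least 2-fold higher again in ripe berries. Members were chosen by their levels in RPKM (reads scaled to transcript length and library size), taken as log2(RPKM + 1) and averaged within each season, then over the 3 seasons. Green berries were those sampled before veraison, the day on which ripening visibly begins, early ripening was days 8 to 22 after it, and ripe berries were the last 2 time points of a season. A member had to gain at least 1 on the log2 scale in each of these steps. The choice was made among 20620 IDs, because 20770 IDs had at least 1 RPKM in 3 libraries and 150 of these, with IDs that start VIT_16s0100g or VIT_10s0042g, were left out. The choice used the green, early and ripe libraries, so both steps are given as a description and were not tested.

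The libraries came from field-grown vines of 1 Cabernet Sauvignon clone on 1 rootstock in a California vineyard, on which 75% or 50% of the crop had been removed after fruit set. All berries therefore came from thinned vines; unthinned vines were not analysed here. Each library was made from a pool of 60 berries taken from 6 clusters, with the seeds removed, and each season, time point and thinning level had 3 replicate libraries. The seasons 2012, 2013 and 2014 had 12, 10 and 12 time points, which ran to day 80, day 43 and day 63 after veraison. Because the labels do not say that replicates came from separate vines, p-values measure the spread between these pools. The table names genes by ID only and none of its IDs occurs in the RefSeq gene table used for names, so members are given by ID and no function is assigned. For the same reason the label of pericarp could not be checked against marker genes.

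Grape berries ripen in a sequence that starts at veraison, when the berry softens, begins to store hexose sugars and, in red cultivars, colours as anthocyanins form in the skin. Acids fall and abscisic acid is known to promote these changes, while photosynthesis genes of the green berry are known to decline. Later ripening is known for aroma, cell wall and stress genes that come on after most of the sugar has been stored. In bulk pericarp, more RNA per cell and more cells that use a gene cannot be told apart. In these berries sugar averaged 0.48, 0.49 and 0.51 g per 100 ml at the first time point of 2012, 2013 and 2014, and 25.2, 25.5 and 25.1 g per 100 ml at the last.

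Some values in the table need stating before the results. Depth is unknown, since the table gives RPKM and no counts. The RPKM values had 2 forms: in 83 libraries at least 20 steadily expressed genes were listed under 0.5 RPKM, namely all 72 of 2014 and 11 of 2013, 9 of which were ripe berries. All libraries of 2014 had the second form and none of 2012 did. The form effect of each gene could be estimated only within a season, time point and thinning level, from 2 green libraries of 2013 set beside replicates of the first form. By that estimate 406 of the tested genes differed at least 2-fold at an adjusted p under 0.05, and 1 of these was a member, VIT_00s1291g00030, at -1.09 on the log2 scale. It had 14.0, 15.8 and 12.9 RPKM in the 75% thinned berries of day 36 in 2013, of the second form, and 34.4, 29.1 and 39.6 RPKM in the 50% thinned berries, of the first. VIT_14s0060g01880, at -0.89, did not pass this threshold, but its levels also split by form in ripe berries, as given below. This gene averaged 0.54 RPKM in green berries. Many members were low there, 41 of them under 1 RPKM, so the green libraries could show little of a form effect in them. The count of 1 member therefore says little, and results below with the form as a covariate rest on the same estimate. In 3 libraries the median member lay at least 0.45 from the mean of its time point on the log2 scale. These were a 75% thinned green library of 2014 (day -7, 0.58 above), a 50% thinned library of 2012 (day 21, 0.47 below, sugar 13.6 g per 100 ml) and a 75% thinned library of 2014 (day 42, 0.45 below, sugar 21.8 g per 100 ml).

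Exact zeros also touched some members. In 7 members at least 1 library was listed at 0 while both other replicates had at least 5 RPKM, against 309 of the 20770 tested genes. VIT_05s0049g00520, the member with the highest ripe mean, was one of them. On day 8 of 2013 it was listed at 0, 0 and 0 RPKM in 75% thinned berries and at 44717, 44662 and 44070 RPKM in 50% thinned berries. On day 15 of that season all 6 libraries were at 0, and on day 22 the 75% thinned berries had 0, 52619 and 0 RPKM and the 50% thinned berries 0, 49889 and 51855 RPKM. In all, 41 of its libraries were at 0, 17 of them in early ripening and none in green berries, so its early mean, and with it the late step that placed it in the group, includes these zeros. VIT_13s0067g03340, VIT_08s0007g05290 and VIT_00s0207g00300 were listed at 0 in 119, 72 and 23 libraries, with up to 2217, 299 and 359 RPKM in others. The other 3 such members, VIT_19s0177g00110, VIT_14s0108g00520 and VIT_17s0000g08800, had 5, 4 and 1 such zeros. Summed levels below are given without these 7 members.

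The group was a minority of either step. An early level at least 2-fold over green berries was found for 943 genes, 4.57% of the 20620, and a ripe level at least 2-fold over early ripening for 1193, 5.79%. The 177 with both made up 0.858%, which was 18.8% of the first set and 14.8% of the second. The onset step of the members had a median of 1.52 on the log2 scale and ran from 1.00 to 6.74, against a median of -0.24 over all genes considered. The late step had a median of 1.51 and ran from 1.00 to 5.47, against 0.05 over all. From green to ripe berries the members gained 3.34 in the median, from 2.00 to 7.75. Most steps were modest: 52 members gained at least 2 on the log2 scale at onset, 49 did so late, and 18 did so in both. The 2 largest onset steps, 6.74 and 5.94, went with late steps of 1.01 and 1.101, and the 2 largest late steps, 5.47 and 5.44, with onset steps of 1.07 and 1.43, as the plot of both steps shows.

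**Figure D1:**
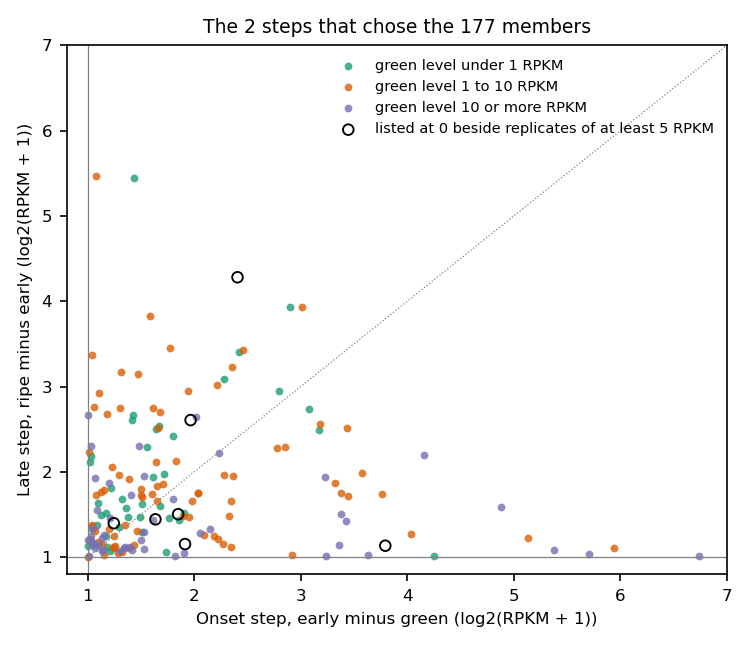
Onset step (x axis, early ripening minus green berries) against late step (y axis, ripe berries minus early ripening) of the 177 members on the log2(RPKM + 1) scale, coloured by green level, with open circles for the 7 members that had implausible zeros. The late step was the larger in 97 members, above the dotted diagonal, and the onset step in 80.

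The threshold passed through a dense part of the data. Just inside it, VIT_15s0046g01370 had an onset step of 1.001 and a late step of 1.003, and VIT_01s0010g02040 and VIT_16s0013g00440 had onset steps of 1.001 and 1.003. Just outside, VIT_09s0002g01190, VIT_02s0087g00910 and VIT_08s0040g03260 had onset steps of 0.992, 0.994 and 0.996. On the late step VIT_06s0004g03890 and VIT_19s0090g01350 were inside at 1.006 and 1.010, while VIT_00s0203g00210, VIT_15s0021g01500 and VIT_01s0137g00430 were outside at 0.996, 0.998 and 0.999. In all, 31 members had an onset step under 1.1 and 21 a late step under 1.1. Taken alone, 2012, 2013 and 2014 put 142, 97 and 131 of the members past both thresholds, and 73 passed in each season. Both steps were above 0 in 176, 174 and 177 of the 177 members in those seasons. With either thinning level alone, 166 members passed in 75% thinned berries and 156 in 50% thinned berries.

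Members differed in how much RNA they had before ripening. In green berries 41 averaged under 1 RPKM, 82 had 1 to 10 RPKM and 54 had 10 RPKM or more. By ripeness 15 members averaged under 10 RPKM, 96 had 10 to 100 RPKM and 66 had 100 RPKM or more. The mean level of the median member was 3.27 RPKM in green berries, 7.17 RPKM on day 0, 17.1 RPKM in early ripening, 42.8 RPKM in mid ripening (day 28 to the third last time point) and 68.3 RPKM in ripe berries. Without the 7 members with implausible zeros, the group's share of all RPKM in a library had a median of 0.239% in green berries, 0.519% on day 0, 1.19% in early ripening, 3.01% in mid ripening and 4.20% in ripe berries. Ripe libraries ran from 2.97% to 5.68% and green libraries from 0.169% to 0.535%. The choice of members used these libraries, so the gap between them is part of the choice. The 54 members with at least 10 RPKM in green berries had medians of 1.45 at onset and 1.24 late, the 82 with 1 to 10 RPKM had 1.64 and 1.74, and the 41 under 1 RPKM had 1.51 and 1.62.

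Among members with clean values, VIT_19s0090g01350 reached the highest level and had the largest onset step. Its lowest, median and highest libraries had 2.04, 22.5 and 984 RPKM in green berries, 105, 548 and 1087 RPKM on day 0, 1002, 3438 and 8008 RPKM in early ripening, 3832, 6986 and 18280 RPKM in mid ripening, and 4170, 6737 and 18867 RPKM in ripe berries. Every early library was above every green library, while mid and ripe libraries covered nearly the same range. Its onset step was 6.74 and its late step 1.01. VIT_12s0034g01950 took the same form at a lower level. It had a median of 0.659 RPKM in green berries (0.0855 to 24.5), 16.8 RPKM on day 0 (0.855 to 34.7), 136 RPKM in early ripening (24.7 to 288), 227 RPKM in mid ripening (87.8 to 324) and 253 RPKM in ripe berries (171 to 632), with steps of 5.94 and 1.101. VIT_08s0040g01820 had medians of 63.0, 346, 700, 950 and 1421 RPKM in those 5 windows. In ripe berries it ranged from 454 to 3681 RPKM, and its green libraries, from 4.12 to 640 RPKM, overlapped both its day 0 and its early libraries.

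The largest late steps belonged to genes that were low until early ripening. VIT_00s0270g00010 had a median of 0 RPKM in green berries, with a highest value of 0.688 RPKM, and on day 0 it did not exceed 0.387 RPKM. Its lowest, median and highest libraries had 0, 1.51 and 19.4 RPKM in early ripening, 2.38, 55.5 and 128 RPKM in mid ripening and 38.0, 123 and 264 RPKM in ripe berries. In 2012 it averaged 6.02 ± 3.76 RPKM on day 21, 98.3 ± 22.2 RPKM on day 53 and 215 ± 19.2 RPKM on day 80 (SD, n = 6). Its late step was 5.44. VIT_00s0301g00100, with a late step of 5.47, had no library over 11.0 RPKM up to day 0. Its medians were 2.42 RPKM in green berries, 2.40 RPKM on day 0, 5.33 RPKM in early ripening, 88.1 RPKM in mid ripening and 318 RPKM in ripe berries. Within 2012 it averaged 142 ± 24.8 RPKM on day 63 and 688 ± 62.9 RPKM on day 74 (SD, n = 6), and the plot by library shows this jump.

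Some members were already high in green berries. VIT_06s0004g04650 had a median of 492 RPKM in green berries (354 to 695), 448 RPKM on day 0 (390 to 660), 863 RPKM in early ripening (575 to 2341), 3815 RPKM in mid ripening (843 to 8183) and 6545 RPKM in ripe berries (3268 to 10027). Its green and day 0 libraries covered the same range, and every ripe library lay above every early one. VIT_14s0171g00100 and VIT_15s0048g00830 had large steps both times, 3.01 and 3.94 for the first and 2.89 and 3.93 for the second. VIT_14s0171g00100 had medians of 2.92, 3.29, 29.7, 337 and 516 RPKM in the 5 windows, and VIT_15s0048g00830 had 0.123, 0.184, 8.64, 113 and 163 RPKM. For both, green and day 0 libraries overlapped.

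**Figure D2:**
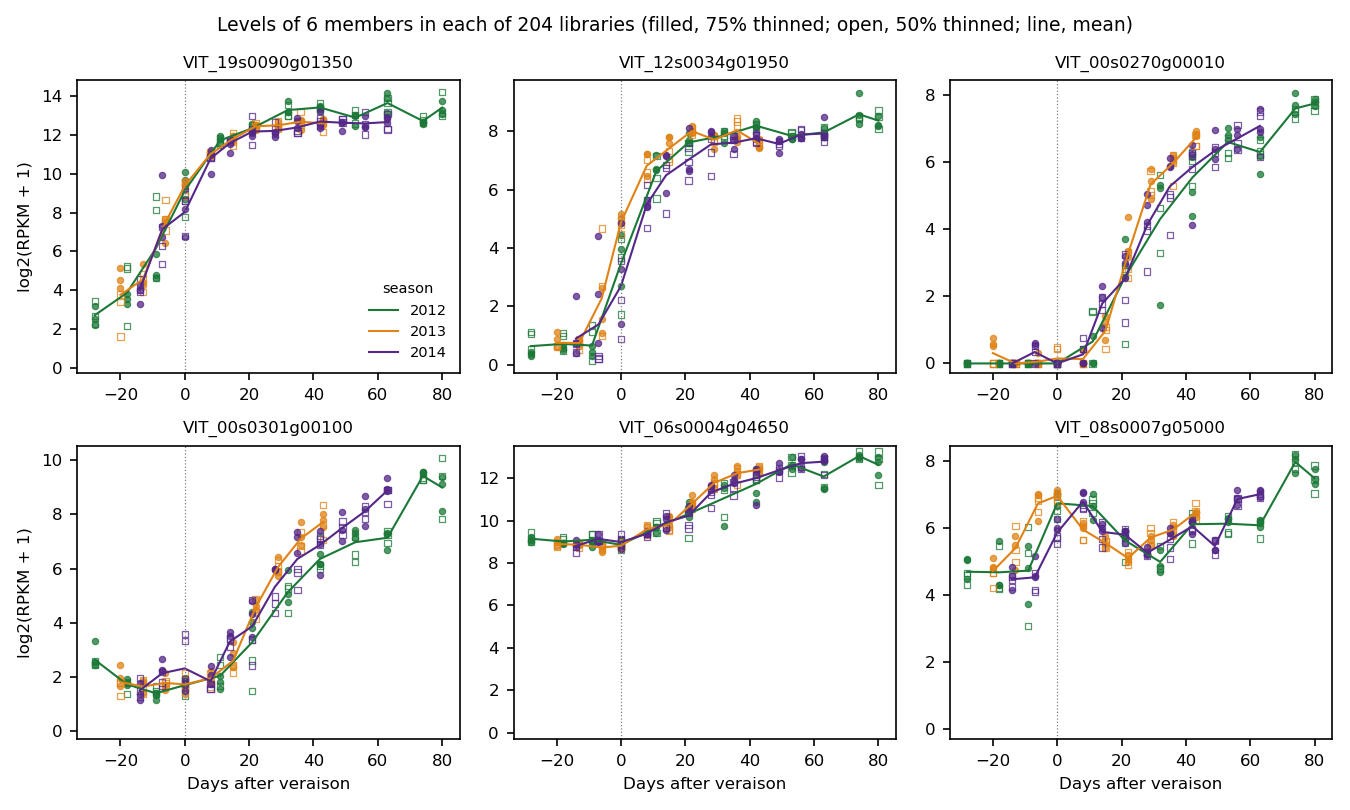
Level of 6 members (y axis, log2(RPKM + 1)) against days after veraison (x axis) in each library, with filled points for 75% and open points for 50% thinned berries and a line for the mean of each season. VIT_19s0090g01350 and VIT_12s0034g01950 climbed mostly before day 22, VIT_00s0270g00010, VIT_00s0301g00100 and VIT_06s0004g04650 mostly after it, and VIT_08s0007g05000 had a first peak near veraison.

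Day 0 and mid ripening were not used to choose the members, and the course through them was gradual for most. On day 0 of the average season 157 members lay between their green and early levels, 14 were below green berries and 6 were above early ripening. The median member had covered 48.4%, 40.3% and 34.0% of its onset step by day 0 in 2012, 2013 and 2014. In mid ripening 168 members lay between their early and ripe levels, 2 were below early ripening and 7 above ripe berries. By then the median member had covered 60.2%, 73.6% and 67.5% of its late step. More members gained than lost in 29 of the 31 intervals between successive time points. Most intervals touch a green, early or ripe day that the choice used, so this count is a description. The exceptions were both in 2012. From day 53 to 63, 74 of 177 were higher, against 41.7% of all genes, and the median changed by -0.07. From day 74 to 80, 63 were higher, against 39.7%, and the median changed by -0.17. Between these intervals, from day 63 to 74, 149 were higher, against 57.3% of all genes. The median member gained 0.62 there and 55 members gained at least 1, as many as from day 0 to 11 of that season. Day 74 was a ripe day that the choice used. Sugar averaged 22.7 ± 2.46 g per 100 ml on day 63 of 2012 and 27.2 ± 1.56 on day 74 (SD, n = 6), and its part in this step was not tested.

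**Figure D3:**
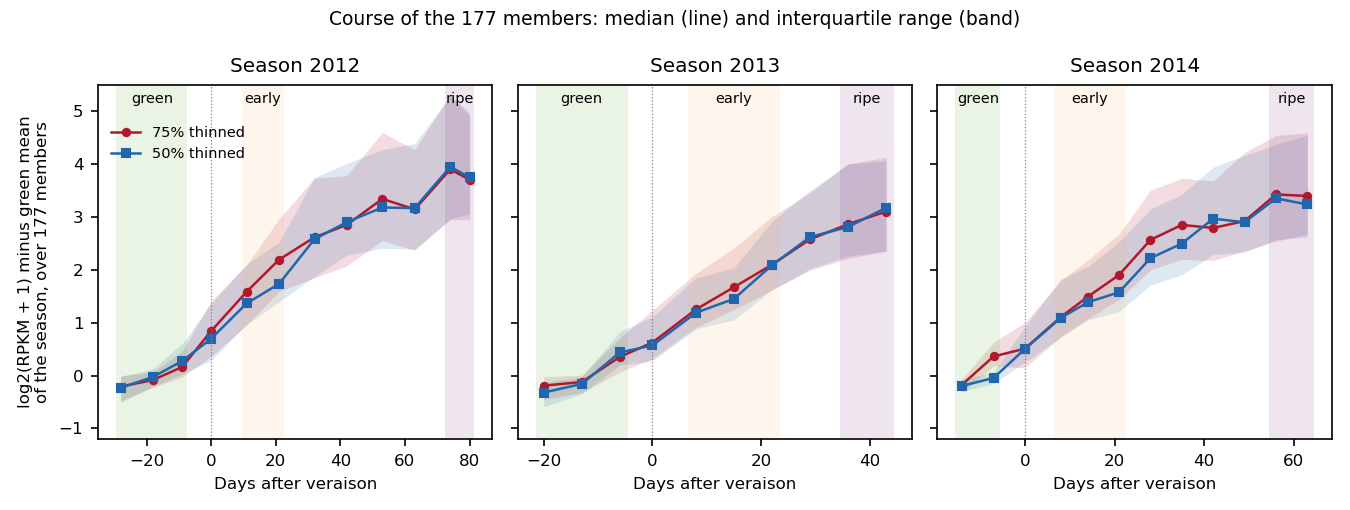
Median (line) and interquartile range (band) of log2(RPKM + 1) over the 177 members, minus the green mean of the season (y axis), against days after veraison (x axis) in 75% and 50% thinned berries, with shading for the windows that chose the members. Medians on the unshaded days lay between those of the windows on either side, with dips within mid ripening of 2012 and 2014, and reached 3.90 on day 74 of 2012, 3.18 on day 43 of 2013 and 3.38 on day 56 of 2014 over both thinning levels.

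Whether the rise was present in libraries that had no part in the choice was tested first from day 0 to days 28 to 32. With limma, over the mean of 3 seasons and both thinning levels, 146 of 177 members rose at least 2-fold at an adjusted p under 0.05, and 1 fell. Over all 20770 genes tested 4.82% rose and 10.2% fell by that rule. The median member gained 1.87 on the log2 scale and the median gene -0.06, and 173 members were above 0. Without the 7 members with implausible zeros, 142 of 170 rose and 1 fell. Season by season, 136, 153 and 148 members rose at least 2-fold in 2012, 2013 and 2014, against 5.73%, 7.33% and 4.72% of all genes. Of the genes with the onset step alone 206 of 766 rose, with a median of 0.44, and of those with the late step alone 329 of 1016, with a median of 0.75. These counts stand side by side as a description, since each set was chosen for a different course.

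VIT_14s0171g00100 and VIT_15s0048g00830 had the largest rises in this interval. VIT_14s0171g00100 averaged 220 ± 71.6, 239 ± 43.4 and 225 ± 56.0 RPKM on days 32, 29 and 28 of 2012, 2013 and 2014, against 2.68 ± 1.56, 4.11 ± 1.58 and 4.00 ± 2.54 RPKM on day 0 of those seasons (SD, n = 6). It rose by 5.72 ± 0.16 on the log2 scale (SE; limma adjusted p = 8.64e-70). VIT_15s0048g00830 averaged 63.9 ± 31.5, 114 ± 27.7 and 55.1 ± 15.6 RPKM on the later days, against 0.169 ± 0.126, 0.202 ± 0.0944 and 1.08 ± 1.06 RPKM on day 0 (SD, n = 6), a rise of 5.67 ± 0.17 (SE; limma adjusted p = 1.88e-65). No later library of either gene overlapped a day 0 library in its season.

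The 1 member that fell, VIT_08s0007g05000, had 2 maxima. It averaged 31.7 ± 7.83, 52.3 ± 7.57 and 37.7 ± 2.52 RPKM on days 32, 29 and 28 of 2012, 2013 and 2014, against 109 ± 22.7, 125 ± 11.3 and 58.4 ± 10.9 RPKM on day 0 (SD, n = 6). The fall was -1.201 ± 0.12 on the log2 scale (SE; limma adjusted p = 1.62e-18). Without 2012 it was -0.93, under 2-fold. In ripe berries its lowest, median and highest libraries had 53.9, 122 and 297 RPKM, against 25.1, 54.97 and 87.5 RPKM in mid ripening. Its steps of 1.01 and 1.01 in the choice of members thus averaged over a dip.

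**Figure D4:**
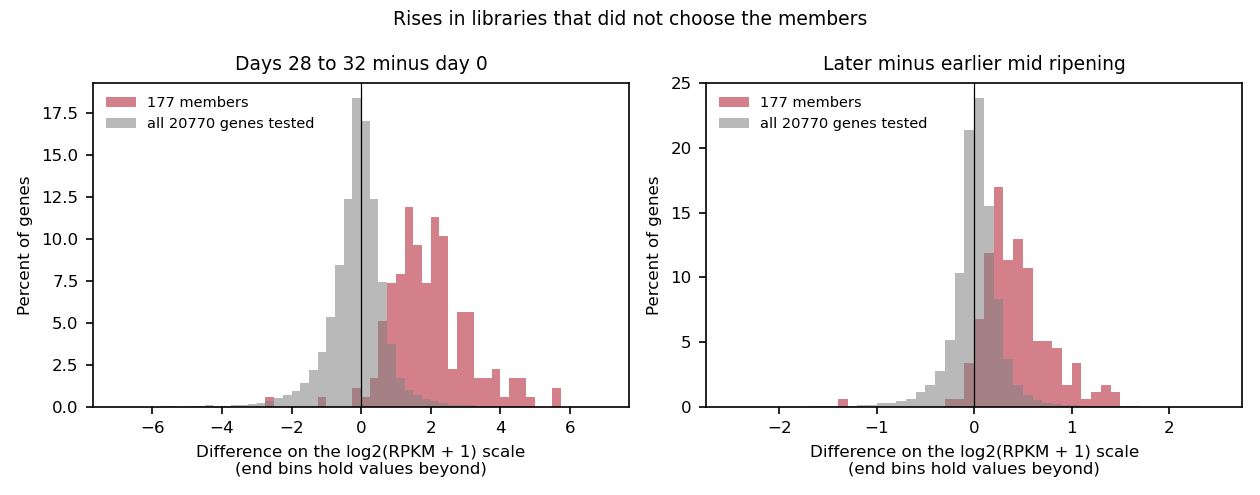
Share of genes (y axis, percent) by difference on the log2(RPKM + 1) scale (x axis) for the 177 members and all 20770 genes tested, from day 0 to days 28 to 32 (left) and within mid ripening (right). The members' medians were 1.87 and 0.38, and those of all genes -0.06 and 0.02. The lowest member in both panels, at -2.57 and -1.35, was VIT_05s0049g00520, which was not called and had libraries listed at 0.

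Members rose further within mid ripening. The contrast set days 53 and 63 of 2012 and days 42 and 49 of 2014 against days 32 and 42 of 2012 and days 28 and 35 of 2014, and shares days 28 and 32 with the one above. In limma 128 of 177 members rose at an adjusted p under 0.05 and 1 fell, against 28.7% and 20.3% of all genes tested. Those that rose at least 2-fold were 13 members, against 0.361% of all genes. The median member gained 0.38 and the median gene 0.02, and 168 members were above 0. Without the 7 members with implausible zeros 128 of 170 rose, and without the 3 libraries that stood apart 136 of 177 did. In 2012 alone 117 members rose and 2 fell, against 26.2% and 16.2% of all genes, and in 2014 alone 103 rose and 0 fell, against 16.7% and 14.9%. Members with the larger late step rose in 76 of 97 cases and those with the larger onset step in 52 of 80. Of the genes with the late step alone 901 of 1016 rose here, and of those with the onset step alone 123 of 766 rose and 296 fell.

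VIT_18s0001g09000 and VIT_00s0270g00010 had the largest rises within mid ripening. VIT_18s0001g09000 averaged 81.8 ± 25.2 and 77.4 ± 50.7 RPKM on days 53 and 63 of 2012, against 21.0 ± 15.5 and 18.1 ± 7.87 RPKM on days 32 and 42. In 2014 it averaged 35.5 ± 12.2 and 61.0 ± 24.5 RPKM on days 42 and 49, against 23.3 ± 9.88 and 29.9 ± 11.8 RPKM on days 28 and 35 (SD, n = 6). Its rise was 1.48 ± 0.20 on the log2 scale (SE; limma adjusted p = 2.41e-10). VIT_00s0270g00010 rose by 1.46 ± 0.15 (SE; limma adjusted p = 2.74e-16), with 1.53 in 2012 and 1.39 in 2014. The member that fell, VIT_07s0005g05590, averaged 8.61 ± 1.104 and 8.48 ± 2.41 RPKM on days 53 and 63 of 2012, against 11.5 ± 2.37 and 9.42 ± 2.55 RPKM on days 32 and 42 (SD, n = 6). Its fall was -0.24 ± 0.09 (SE; limma adjusted p = 0.019), and it was not called without replicate 1 (-0.14), without replicate 3 (-0.24), or in either season alone.

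The size of the rise varied by season. From day 0 to days 28 to 32 the 3 seasons differed for 101 members by limma's moderated F test at an adjusted p under 0.05, which is 57.1% of them against 60.4% of all genes tested, so the share was near the background. The smallest p belonged to VIT_14s0060g01880 and VIT_07s0104g00150. VIT_14s0060g01880 rose by 3.70, 3.55 and 1.88 (SE 0.16 each) in 2012, 2013 and 2014, with 23.1 ± 2.94, 22.8 ± 3.66 and 4.52 ± 1.12 RPKM at the later day, against 0.914 ± 0.563, 1.07 ± 0.629 and 0.483 ± 0.249 RPKM on day 0 (SD, n = 6). VIT_07s0104g00150 rose by 3.65, 2.25 and 1.46 (SE 0.20 each), with 43.2 ± 5.80, 49.7 ± 9.89 and 40.0 ± 3.93 RPKM at the later day, against 2.59 ± 0.862, 9.62 ± 2.15 and 14.2 ± 3.47 RPKM on day 0 (SD, n = 6). The means of VIT_07s0104g00150 were farther apart between seasons on day 0 than at the later day, while VIT_14s0060g01880 was lowest at both days in 2014, when all libraries had the second form. Within mid ripening the rise of 2014 was larger than that of 2012 for 2 members and smaller for 4, against 1.99% and 4.16% of all genes. The days set against each other lay farther apart in 2012 than in 2014, so these calls cannot separate season from length of interval. Without replicate 1, 2 and 3 these calls numbered 3, 0 and 17.

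At matched or near days in mid ripening members were called between seasons more often than all genes. In the 3 comparisons below 7.34%, 7.34% and 9.04% of members were called, against 2.43%, 2.73% and 1.80%. Of the genes with the onset step alone 9.27%, 6.53% and 5.35% were called, and of those with the late step alone 2.26%, 2.165% and 5.02%. With the form as a covariate the shares of members in the comparisons with 2014 were 1.13% and 1.69%, against 0.862% and 1.16% of all genes. On day 42, 6 members were at least 2-fold higher and 7 at least 2-fold lower in 2014 than in 2012 (limma, adjusted p under 0.05), against 0.472% and 1.95% of all genes, with a median difference of 0.10. With the form as a covariate 0 were higher and 2 lower. Without the 3 libraries that stood apart the counts were 11 and 7, and without replicate 1, 2 and 3 there were 27, 5 and 6 calls in all. On day 28 of 2014 against day 32 of 2012, 4 members were higher and 9 lower, against 0.462% and 2.26% of all genes. With the form as a covariate 0 were higher and 3 lower, and without replicate 2 the counts were 6 and 5. Day 29 of 2013 against day 32 of 2012 gave 14 higher and 2 lower, against 1.04% and 0.761%, with a median of 0.28, and 6 and 25 calls in all without replicate 1 and 2. Without the 7 members with implausible zeros these 3 comparisons gave 5 higher and 7 lower, 4 and 8, and 12 and 2. The largest differences at these days included members listed at 0 in some libraries: VIT_05s0049g00520, VIT_13s0067g03340, VIT_08s0007g05290 and VIT_14s0108g00520. Of those without such zeros, VIT_14s0060g01880 had 8.28 ± 1.03 RPKM on day 42 of 2014 and 46.7 ± 6.13 RPKM on day 42 of 2012 (SD, n = 6), a difference of -2.36 ± 0.16 (SE; limma adjusted p = 6.67e-27). It was -1.47 when the form entered the fit. VIT_05s0020g02500 had the largest difference of them in the other direction on that day, 1.31 ± 0.25 (SE; limma adjusted p = 1.12e-05).

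Ripe berries were also set side by side between seasons. Their libraries took part in the choice of members, through the mean of the 3 seasons, and 142 members met the rule in 2012 alone against 97 in 2013 alone, so these differences are a description and no p is given. The counts use the threshold above as a cut-off and do not test the members. The choice itself could favour lower levels in 2013 than in 2012. The days differed too: days 36 and 43 in 2013, days 56 and 63 in 2014 and days 74 and 80 in 2012. In 2013 against 2012, 3 members were at least 2-fold higher and 37 at least 2-fold lower by the rule used above, against 3.47% and 3.36% of all genes, and the median member was at -0.50. In 2014 against 2012, 4 were higher and 12 lower, against 1.65% and 2.56%, with a median of -0.25. In 2014 against 2013, 4 were higher and 1 lower, against 0.385% and 0.568%, with a median of 0.23. There 145 of 177 members were above 0, against 51.8% of all genes. Of the genes with the late step alone 91.5% were above 0, and of those with the onset step alone 25.6%. Without the 7 members with implausible zeros the counts were 2 and 37, 2 and 12, and 4 and 1. These 3 comparisons share their libraries. Genes with the late step alone had medians of -0.60, -0.29 and 0.30 in the same comparisons, and genes with the onset step alone 0.33, 0.19 and -0.20. On the one day that was mid ripening in one season and ripe in another, day 63, 135 members were higher in 2014 than in 2012 and the median difference was 0.38, given as a description. Day 63 was a ripe day of 2014 that the choice used. The share over all genes was not counted for this day, so the count has no background.

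Among members without implausible zeros, VIT_09s0002g00580 had the largest of these differences. It averaged 2.92 ± 3.52 and 1.59 ± 0.75 RPKM on days 36 and 43 of 2013 and 5.04 ± 3.77 and 5.52 ± 3.83 RPKM on days 56 and 63 of 2014, against 19.8 ± 6.80 and 94.9 ± 37.2 RPKM on days 74 and 80 of 2012 (SD, n = 6). The difference from 2012 was -3.94 ± 0.33 in 2013 and -2.98 ± 0.33 in 2014 (SE), so its ripe mean over the seasons, which chose it, was set mostly by 2012. VIT_14s0060g01880 stood at -2.29 ± 0.12 in both comparisons (SE). The form of the values moved with it: on day 36 of 2013 it had 10.6, 10.6 and 7.51 RPKM in 75% thinned berries, of the second form, and 34.9, 33.8 and 34.5 RPKM in 50% thinned berries, of the first. With the form as a covariate the 2 differences were -1.62 in 2013 and -1.39 in 2014. The neighbours VIT_02s0033g01390 and VIT_02s0033g01400 were higher in ripe berries of 2014 than of 2013, by 1.23 ± 0.22 and 1.02 ± 0.17 (SE). VIT_02s0033g01390 averaged 346 ± 117 and 397 ± 142 RPKM on days 56 and 63 of 2014, against 113 ± 29.9 and 210 ± 54.97 RPKM on days 36 and 43 of 2013 (SD, n = 6). VIT_19s0014g00440 was the 1 member lower in that comparison, at -1.33 ± 0.29 (SE). Without replicate 3 the differences of VIT_02s0033g01400 and VIT_19s0014g00440 were 0.95 and -0.91, under 2-fold.

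Thinning compared berries from vines with more and with less of the crop removed, and the choice of members averaged both levels and did not use their difference. Over all time points 7 members were higher in 75% than in 50% thinned berries and none was lower (limma, adjusted p under 0.05), against 0.347% and 1.94% of all genes. The differences were small, with a median of 0.07 on the log2 scale against -0.01 over all genes, and 158 of 177 members were above 0, as were 42.6% of all genes. Of the genes with the onset step alone 70.2% were above 0, and of those with the late step alone 73.8%, each with a median of 0.03. VIT_14s0060g01870 and VIT_07s0005g03810 had the largest called differences, 0.17 ± 0.05 and 0.16 ± 0.05 (SE, limma adjusted p = 0.026 and 0.049). Neither was called when any 1 replicate number was left out, and 0, 2 and 5 members were called without replicate 1, 2 and 3. Without 2012, 2013 and 2014 the calls numbered 3, 3 and 0, with the form as a covariate 0, and with median ratio scaling 15. Over all genes they numbered 291, 159 and 109 without those seasons, 1 with the form and 685 with that scaling, against 474 before these changes. Without replicate 1, 2 and 3 there were 1, 58 and 187 calls over all genes.

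Early ripening was the window with the most members called for thinning. In days 8 to 22, 17 members were higher in 75% than in 50% thinned berries and none was lower (limma, adjusted p under 0.05), against 1.07% and 3.14% of all genes. The median was 0.15, and 158 members were above 0, against 42.5% of all genes. Of the genes with the onset step alone 57.4% were above 0, and of those with the late step alone 73.7%. In 2012, 2013 and 2014 the members' medians were 0.18, 0.13 and 0.11, and 157, 163 and 142 members were higher. The same 17 of 170 were called without the members with implausible zeros, but 7 of 177 without the 3 libraries that stood apart, and 2, 3 and 8 without replicate 1, 2 and 3. Without 2012, 2013 and 2014 the calls numbered 1, 15 and 0. Over all genes they numbered 524, 1362 and 0 without those seasons, against 875 with all 3. Without replicate 1, 2 and 3 there were 26, 44 and 629 calls over all genes. Sugar was also higher in 75% thinned berries in this window. It averaged 17.0 ± 2.62 g per 100 ml in 75% and 15.1 ± 2.27 in 50% thinned berries in 2012 (SD, n = 6 each), 18.3 ± 1.97 and 17.1 ± 2.45 in 2013, and 15.5 ± 2.77 and 14.7 ± 3.36 in 2014 (SD, n = 9 each). With the sugar of each library as a covariate the median was 0.07, 128 members were above 0 and 11 were called. On day 0 sugar differed by 1.00, 0.58 and 1.23 g per 100 ml (75% minus 50%) in 2012, 2013 and 2014, with 117, 116 and 112 members higher. In mid ripening it differed by -1.15, 2.30 and -0.59, with 92, 80 and 155 members higher. The members' medians there were 0.004, -0.02 and 0.13, against -0.01, -0.01 and 0.02 over all genes. A part of sugar in the thinning difference was not tested.

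VIT_14s0083g00670 had the largest called difference in early ripening. Its lowest, median and highest libraries had 2.53, 17.4 and 37.4 RPKM in 75% thinned berries, against 1.35, 8.89 and 30.8 RPKM in 50% thinned berries, so the ranges overlapped widely across days and seasons. The difference was 0.63 ± 0.18 (SE; limma adjusted p = 0.028), and with sugar as a covariate it was 0.32. It was called neither there nor in 8 other alternatives, which include leaving out any 1 of the replicates. VIT_08s0007g04770 had 6.85, 20.7 and 31.7 RPKM in 75% thinned berries, against 6.21, 12.8 and 26.7 RPKM in 50% thinned berries. Its difference was 0.48 ± 0.10 (SE; limma adjusted p = 0.0036). It was not called in 3 alternatives, which include leaving out replicate 2, at 0.44, and leaving out 2014.

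In the other windows few or no members were called. On day 0, 1 member was lower in 75% thinned berries and none was higher, against 5.75% and 1.69% of all genes, and 5, 2 and 0 members were called without replicate 1, 2 and 3. This was VIT_15s0048g00500, at 0.379, 0.0605 and 2.61 RPKM in 75% and 14.9, 6.02 and 21.2 RPKM in 50% thinned berries of 2014, where the groups did not overlap. In 2012 it had 0.562, 0.857 and 0.828 RPKM in 75% and 0.653, 0.501 and 0.692 RPKM in 50% thinned berries. In 2013 it had 1.72, 1.61 and 0.950 RPKM in 75% and 1.15, 1.17 and 4.46 RPKM in 50% thinned berries, so the groups overlapped in both of these seasons. Its difference over the seasons was -1.05 ± 0.25 (SE; limma adjusted p = 0.0047), with -0.09 without 2014, and it was not called without replicate 3 (-0.90). In green berries limma called 0 members, against 0.0% of all genes higher and 0.0915% lower. There 18 of 177 members and 1383 of the 20770 genes had an unadjusted p under 0.05. In mid ripening it called 0 members and 0.0% of all genes in either direction, and 5 members and 317 of the 20770 genes had an unadjusted p under 0.05. In ripe berries it called 0 members, against 0.0193% of all genes higher and 0.616% lower. There 2 members and 977 of the 20770 genes had an unadjusted p under 0.05. On day 36 of 2013, a ripe day, the 75% thinned libraries were of the second form and the 50% thinned ones of the first. With the form as a covariate limma called 12 genes higher and 5 lower in ripe berries, and 0 members. The members' ripe median was then 0.003. Without that covariate the members' medians were 0.06, 0.08, 0.03 and 0.03 in green berries, on day 0, in mid ripening and in ripe berries. Their signs were not stable: the green median was 0.03 without the libraries that stood apart and -0.01 without 2014, the mid median -0.04 without replicate 3 and -0.01 without 2014, and the ripe median -0.01 without replicate 1. Whether the thinning difference over all time points varied by season was called for 0 members, against 0.549% of all genes (limma's moderated F test). In that test 7 members and 1173 of the 20770 genes had an unadjusted p under 0.05.

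**Figure D5:**
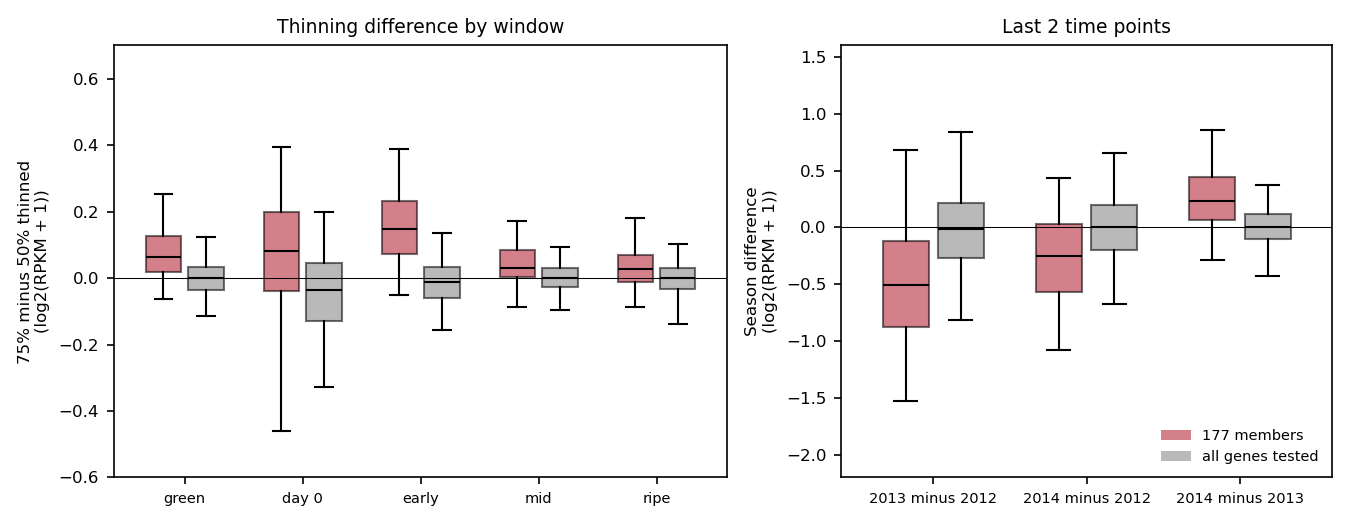
Differences on the log2(RPKM + 1) scale (y axes) for the 177 members and for all genes tested, as boxes from the 25th to the 75th percentile with a line at the median and whiskers from the 5th to the 95th percentile. Left, 75% minus 50% thinned berries by window, with members' medians of 0.06, 0.08, 0.15, 0.03 and 0.03. Right, ripe berries between seasons, with medians of -0.50, -0.25 and 0.23.

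The members were spread over the genome as far as their IDs show it. IDs whose prefix names chromosome 14 were the most frequent, 23 of 177 or 12.99%, against 6.26% of tested genes, and no other prefix held over 14 members. There were 8 pairs with neighbouring IDs and no run of 3 or more. In 1 such pair, named after its values were seen, VIT_04s0023g03120 and VIT_04s0023g03130 averaged 40.3 and 78.5 RPKM in green berries, 110 and 159 RPKM in early ripening and 271 and 464 RPKM in ripe berries. In another VIT_02s0033g01390 and VIT_02s0033g01400 had nearly equal steps, 2.46 and 2.36 at onset and 3.42 and 3.23 late. Reads of such neighbours could be split between near-identical copies by the counting, which the table does not show, so their agreement is uncertain. The median SD between replicates of a season, day and thinning level was 0.32 on the log2 scale over the members, against 0.17 over all genes tested.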

How the data were processed

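Deposited values were RPKM per gene ID, made by the authors, with TopHat2 2.0.6 and Cufflinks 2.0.2 named in the submitters' processing notes; the build was not given in the sources used here. Season was taken from the source name and title, since the year tag of 134 libraries disagrees with them. RPKM values were taken as log2(RPKM + 1). Genes with at least 1 RPKM in 3 libraries were fitted with limma 3.58.1 (R 4.3.3), with 1 mean for each season, time point and thinning level, an intensity trend and Benjamini-Hochberg adjustment over all genes; the script was tested on simulated data. Calls needed an adjusted p under 0.05, and comparisons of time or season a 2-fold change as well, except within mid ripening. Members and lists were chosen with earlier results of these data known. Named genes were those with the highest ripe levels and largest steps, those nearest the thresholds and, per comparison, up to 2 called in each direction with the largest changes. Lists of functions and markers could not be applied to IDs. The labels give no batch other than season. RPKM without counts gives no depth. The closing section gives the alternatives and what they changed.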

Additional observations from a re-analysis of the deposited data

Results flagged for a closer look

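A rise from day 0 to days 28 to 32 that differed between seasons was called for 101 of the 177 members by limma's moderated F test, a share near that of all genes tested, 60.4%. The adjusted p was 4.43e-12 for VIT_14s0060g01880, which rose by 3.70, 3.55 and 1.88 on the log2 scale in 2012, 2013 and 2014, and 1.62e-10 for VIT_07s0104g00150, which rose by 3.65, 2.25 and 1.46.

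The rise within mid ripening differed between 2014 and 2012 for 6 members in limma, 2 with a larger rise in 2014 and 4 with a smaller one. These were 3.39% of members, a smaller share than the 6.15% of all genes tested. The days set against each other lay farther apart in 2012 than in 2014, so season and length of interval cannot be told apart here. VIT_00s0347g00040 rose by 1.32 in 2014 and 0.44 in 2012, a difference of 0.88 ± 0.23 on the log2 scale (SE). VIT_09s0002g09140 changed by 0.44 in 2014 and -0.41 in 2012, a difference of 0.85 ± 0.20. VIT_09s0002g00580 changed by 0.11 in 2014 and 1.94 in 2012, a difference of -1.82 ± 0.46. VIT_18s0001g09000 changed by 0.84 in 2014 and 2.11 in 2012, a difference of -1.27 ± 0.40. All libraries of 2014 had the second form of the values and none of 2012 did. Each rise lay within 1 season and 1 form, so a form term cancels and the covariate cannot test the form here. With it the count was again 6.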

How the results depend on the processing

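The 146 and 128 members that rose from day 0 to days 28 to 32 and within mid ripening stayed within 1.5 times of those counts in every alternative run. Which genes are members depended on the scale: 398 genes met the rule with a pseudocount of 0.1, 83 with 5 and 302 after quantile normalization. Thinning calls varied with the setting, among members and over all genes. On day 0, 1544, 309 and 190 of all genes were called without replicate 1, 2 and 3, against 1545 with all replicates. Over all time points, 4 members were called with a pseudocount of 0.1, 15 with median ratio scaling, 0 with the form of the values as a covariate, 3, 3 and 0 without 2012, 2013 and 2014, and 0 to 5 without a replicate. In green berries 1 was called with no filter and 1 without either 2012 or 2013, and 0 to 2 without a replicate. On day 0 the count was 2 with a pseudocount of 0.1 or 5 or a filter of 5 RPKM, 6, 9 and 0 without 2012, 2013 and 2014, 3 without the libraries that stood apart, 4 with sugar as a covariate, and 0 to 5 without a replicate; most calls were higher in 75% thinned berries with median ratio scaling (4 calls), quantile normalization (5) and without replicate 1 (5). In early ripening it was 9 with a pseudocount of 0.1, 1 and 0 without 2012 and 2014, 7 without the libraries that stood apart, 11 with sugar as a covariate and 2 to 8 without a replicate. For thinning by season it was 0 to 1 without a replicate.

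Between seasons, the mid ripening rise differed for 2 members with a pseudocount of 0.1, 12 with 5, 12 with sugar as a covariate and 0 to 17 without a replicate; more were larger in 2014 with median ratio scaling (5 calls), without the libraries that stood apart (5) and without replicate 1 (3). On day 42 there were 6 calls with a pseudocount of 5, 2 with the form as a covariate and 5 to 27 without a replicate, and most were higher in 2014 without the libraries that stood apart (18) or replicate 1 (27). At days 28 and 32 there were 3 calls with the form as a covariate and 11 to 13 without a replicate, with more higher than lower in the 11. At days 29 and 32 there were 9 with a pseudocount of 5 and 6 to 25 without a replicate. In ripe berries of 2014 against 2013 there were 2 with a pseudocount of 5 and 3 with the form as a covariate. The cause was not tested in any of these. The alternatives without the libraries that stood apart and with sugar as a covariate were chosen after seeing the data. Same-numbered replicates of the 2 thinning levels did not deviate together, with a median correlation of -0.06 to 0.20 by season and number, so the numbers were not taken as pairs. With the number as a replicate block, 17 members were called for thinning in early ripening and 6 over all time points, and no count moved by over 1.5 times. Depth is unknown, so what it limits could not be given.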
